A study of Mus musculus with 16 samples.

Results

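The sympathetic ganglia and the adrenal medulla arise from neural crest cells that take on a noradrenergic fate under a small circuit of transcription factors, which regulate one another and the genes of noradrenaline synthesis. The 8 members of that circuit described here, Phox2a, Hand1, Hand2, Gata2, Gata3, Isl1, Tbx2 and Insm1, were taken by gene symbol from the deposited expression tables, which list 24411 genes. All 8 passed the filter on low counts that left 16665 genes for testing. Each of these factors is also expressed in human neuroblastoma, a childhood tumor of the sympathetic lineage.

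RNA-Seq was performed on celiac ganglia (n = 12), dissected at the age of 2 weeks, and on tumors (n = 4) of the Th-MYCN model, in which human MYCN is driven by the tyrosine hydroxylase (Th) promoter in catecholaminergic cells of mice. The study asked whether loss of a Runx1t1 allele, through an insertion that inactivates it, changes the ganglia in which these tumors arise. Transgene-free ganglia lacked the MYCN transgene and were Runx1t1 wild-type (n = 4) or labeled Runx1t1 heterozygote, here het (n = 3). MYCN ganglia were homozygous for the transgene and were Runx1t1 wild-type (n = 3) or labeled het (n = 2). The 4 tumors were homozygous for MYCN and Runx1t1 wild-type, and the labels give no age for them. Tissue was taken from the titles, since the label for cell type calls all of the samples neuroblastoma, even the ganglia. Replicate numbers are those of the labels, which do not say whether each library came from its own animal, so the p-values measure the spread between these libraries.

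Total counts ranged from 10692299 to 38618757 per library, and 6 of the 12 ganglia but no tumor had under 20000000. The Runx1t1 transcript did not separate the labeled genotypes. It was at 2.78 to 4.41 TPM (a level per transcript, corrected for gene length and for the total of the library) in transgene-free wild-type ganglia, 4.36 to 6.28 in transgene-free het ganglia, 7.9 to 70.3 in MYCN wild-type ganglia, 8.83 to 16.9 in MYCN het ganglia and 29.5 to 55.8 in tumors. One library stood apart in its other cells: transgene-free wild-type replicate 2 had a summed level of 7 lymphocyte markers of 968 TPM, against at most 8.19 in any other library, and it was lowest of the transgene-free ganglia for 7 of the members. Tumor replicate 3 had a summed level of 5 hepatocyte markers of 5980 TPM, against 1.45 to 66.1 in the other tumors. The defining markers of neurons were present in every group, with summed levels of 6990 to 19200 TPM over 8 genes in ganglia and 2200 to 3040 TPM in tumors.

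The genes lie on 6 chromosomes of the mouse genome GRCm38 (mm10), with Hand1 and Tbx2 sharing one and Gata3 and Insm1 another. Phox2a occupies chr7:101818313-101822726 on the plus strand and overlaps Inppl1 on the opposite strand. Hand1 lies at chr11:57828705-57832818 on the minus strand and Hand2 at chr8:57320983-57324633 on the plus strand, where it overlaps the antisense transcript Hand2os1, not listed in the tables. Gata2 lies at chr6:88193891-88207032 on the plus strand and Gata3 at chr2:9857078-9890034 on the minus strand, with 9230102O04Rik overlapping Gata3 on the same strand and 4930412O13Rik on the opposite one. Isl1 lies at chr13:116298281-116309689 on the minus strand, Tbx2 at chr11:85832551-85841948 on the plus strand, and Insm1, a gene of 1 exon, at chr2:146221921-146225020 on the plus strand. The sources used here do not say whether counting used the strand, so reads of overlapping genes may be shared. Inppl1 was at 105.8 to 305.8 TPM in tumors and 25.45 to 42.32 TPM in ganglia, while 4930412O13Rik reached 9.07 TPM and 9230102O04Rik 7.68 TPM in any library.

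RefSeq promoter entries (GRCm38.p6) were matched for 5 of the members, Phox2a, Hand2, Gata2, Gata3 and Isl1. No entry was matched for Hand1, Tbx2 and Insm1. The 250 bases before the annotated start are shown for 4 of them, 5′ to 3′ on the gene's own strand, to set the Hand2 window, with a share of G and C near the mean of all promoters, beside 3 with a higher share. Capitals mark CANNTG, the E-box core that basic helix-loop-helix proteins such as the Hand factors bind with their partners. The windows are chr7:101818063-101818312 for Phox2a, chr8:57320733-57320982 for Hand2, chr2:9878601-9878850 for Gata3, which starts inside the longer gene model given above, and chr13:116309689-116309938 for Isl1.
Phox2a: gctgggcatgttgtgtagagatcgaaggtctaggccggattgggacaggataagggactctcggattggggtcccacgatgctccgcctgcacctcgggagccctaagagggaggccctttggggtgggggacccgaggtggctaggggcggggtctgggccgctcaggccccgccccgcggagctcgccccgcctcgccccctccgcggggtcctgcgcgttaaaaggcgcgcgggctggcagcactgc
Hand2: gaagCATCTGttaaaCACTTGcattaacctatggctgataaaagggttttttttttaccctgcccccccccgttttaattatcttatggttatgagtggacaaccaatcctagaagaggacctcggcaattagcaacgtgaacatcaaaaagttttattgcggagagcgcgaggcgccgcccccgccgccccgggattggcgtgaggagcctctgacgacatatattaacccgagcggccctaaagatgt
Gata3: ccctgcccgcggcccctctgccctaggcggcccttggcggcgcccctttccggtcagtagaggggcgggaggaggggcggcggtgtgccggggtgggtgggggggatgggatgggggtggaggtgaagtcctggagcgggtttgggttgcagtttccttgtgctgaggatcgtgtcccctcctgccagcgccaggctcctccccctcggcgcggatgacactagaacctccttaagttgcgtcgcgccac
Isl1: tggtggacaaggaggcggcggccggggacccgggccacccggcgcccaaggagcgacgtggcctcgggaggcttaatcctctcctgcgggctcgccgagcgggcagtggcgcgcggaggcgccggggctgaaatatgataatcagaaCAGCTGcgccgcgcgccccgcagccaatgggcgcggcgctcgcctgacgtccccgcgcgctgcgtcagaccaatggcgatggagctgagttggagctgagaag
The Hand2 window held 2 positions of CANNTG, 246 and 235 bases before the start, and the Isl1 window 1, at 103 bases. Phox2a, Gata3 and both Gata2 entries held none, while 66.2% of 32851 promoters of this length held at least 1. Other motifs were searched on both strands. The letters AGATAA, the only form of a GATA factor site that was searched, occurred once, in the Hand2 window at 172 bases before the start. They are present in 9.99% of promoters of this length. Other forms, such as TGATAA, were not counted. CACGTG, the E-box form of MYC family proteins and itself a CANNTG, was in none of the windows and is in 6.02% of all promoters. GGTGTGA, the T-box core, was in none of them either and is in 3.33% of all promoters. The Hand2 window had 49.2% G and C, against 70.4% for Phox2a, 70% for Gata3 and 71.2% for Isl1, with a mean of 53.2% over all promoters. These matches describe letters only.

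Tumors were compared with ganglia that lacked the transgene to ask how the circuit differs between the fully developed tumor and the normal tissue. Hand1 and Phox2a were lower in tumors, Insm1, Isl1 and Gata3 were higher, and Hand2, Gata2 and Tbx2 did not pass the test. Hand1 was 43.1-fold lower and Insm1 238-fold higher in edgeR's quasi-likelihood test, in which a call is a Benjamini-Hochberg adjusted p under 0.05 over all 16665 genes, and both folds depended on single libraries, as given below for each gene. That is 5 of 8 members called, 3 higher and 2 lower. Of all genes tested, 61.4% were called in this comparison, 30.6% higher and 30.9% lower, so the members' share was near the background. The median log2 fold change was -0.10 over the members and -0.06 over all genes. In bulk tissue, fewer cells of a type and less RNA per cell cannot be told apart.

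**Figure D1:**
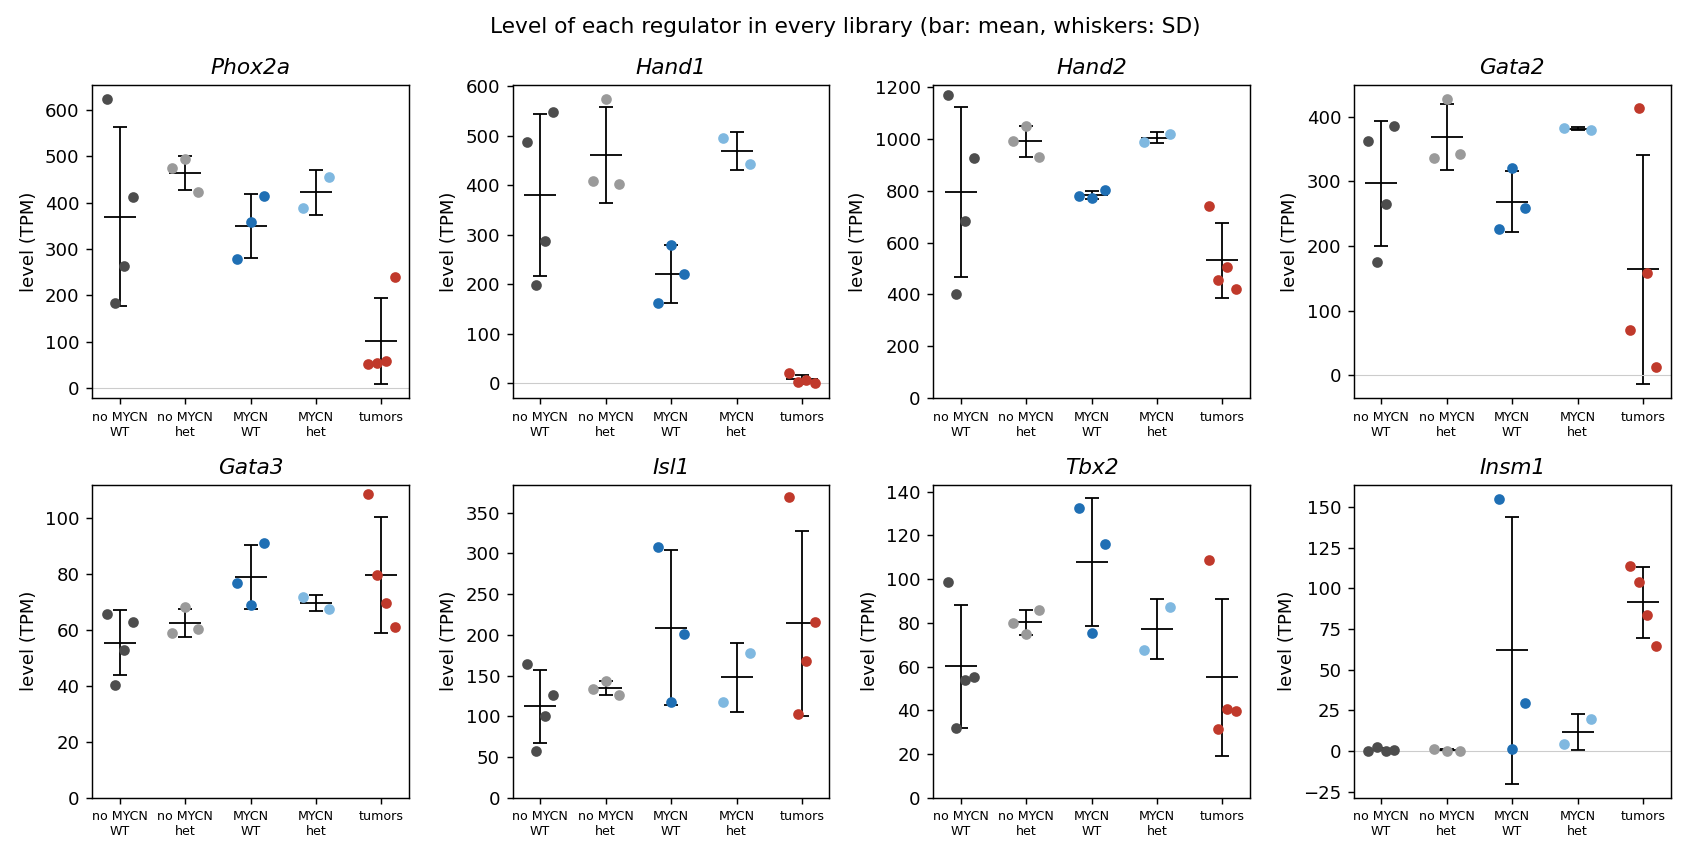
Level of each of the 8 genes in TPM (vertical axes, one panel per gene, each on its own scale from 0) in every library of the 5 groups, with points for single libraries and bars for the group mean ± SD. Hand1 is at 161.8 TPM or more in every ganglion and at 19.87 TPM or less in every tumor, and Insm1 is above 2.5 TPM in no ganglion without the transgene and at 64.63 TPM or more in every tumor.

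Phox2a is a paired-type homeodomain factor that activates the noradrenaline-synthesizing enzyme genes. It was at 623.2, 182.8, 263.3 and 411.5 TPM in transgene-free wild-type ganglia (replicates 1 to 4), 474.5, 494.3 and 422.9 in transgene-free het ganglia, 277.7, 358 and 413.8 in MYCN wild-type ganglia and 387.8 and 456.2 in MYCN het ganglia. In tumors it was at 53.06, 54.99, 59.18 and 240.4 TPM. The first 3 tumors lay below every ganglion. The fourth lay within the range of the ganglia only through transgene-free wild-type replicate 2, at 182.8 TPM, since the next lowest ganglion was at 263.3 TPM. The log2 fold change of tumors against transgene-free ganglia was -1.57 (SE 0.44, edgeR adjusted p = 0.00671), with 3 of 4 tumors below all 7 ganglia. It was -2.45 without tumor replicate 4. The overlapping gene Inppl1 moved the other way, and its part in the Phox2a counts was not tested.

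The Hand factors are basic helix-loop-helix proteins of developing sympathetic neurons, which require Hand2. Hand1 was at 486.6, 198.8, 287.3 and 548.4 TPM in transgene-free wild-type ganglia, 407.6, 574.1 and 403.2 in transgene-free het ganglia, 161.8, 279.4 and 220.2 in MYCN wild-type ganglia, and 496.1 and 442.8 in MYCN het ganglia. The tumors were at 19.87, 2.21, 6.7 and 0.14 TPM, the last of these resting on 5 counts. All 4 tumors lay below all 12 ganglia, and among themselves they spanned a 142-fold range, the widest of the members in tumors. The log2 fold change against transgene-free ganglia was -5.43 (SE 0.89, edgeR adjusted p = 0.000124), and ran from -6.72 without tumor replicate 1 to -5.02 without tumor replicate 4.

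Hand2 was the member with the highest TPM in each of the 16 libraries, and none of its differences passed the edgeR test. Its levels were 1169, 399.6, 685 and 927.3 TPM in transgene-free wild-type ganglia, 993.6, 1050 and 928.6 in transgene-free het ganglia, 778, 773.3 and 801.8 in MYCN wild-type ganglia, 988.9 and 1019 in MYCN het ganglia, and 742.6, 456.8, 504 and 421.4 in tumors. Transgene-free wild-type replicate 2 was the lowest library, tumor replicates 2 to 4 lay below all other ganglia, and tumor replicate 1 lay within their range. Its log2 fold change was -0.30 (SE 0.23, edgeR adjusted p = 0.271). With limma on log2(TPM + 1), where the median of all genes moved from -0.05 to -0.42, Hand2 passed at -0.72 (adjusted p = 0.0162), which is -0.30 relative to that median.

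Gata2 and Gata3 are zinc finger factors of noradrenergic differentiation, and they differed from each other in tumors. Gata2 was at 362.2, 174.9, 264.9 and 384.7 TPM in transgene-free wild-type ganglia, 336.1, 426.9 and 342.6 in transgene-free het ganglia, 226.8, 319.7 and 259.2 in MYCN wild-type ganglia and 382.7 and 379.8 in MYCN het ganglia. The tumors were at 69.85, 413.1, 158.5 and 12.6 TPM, a 32.8-fold range. Tumor replicate 2 lay among the highest ganglia and the other 3 below every ganglion. The log2 fold change of -0.57 (SE 0.59) did not pass (edgeR adjusted p = 0.419), and when single libraries were left out it ran from -1.64 (adjusted p = 0.0169) without tumor replicate 2 to -0.18 (adjusted p = 0.724) without tumor replicate 4. On log2(TPM + 1), with that tumor included, limma gave -1.86 (adjusted p = 0.0182).

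Gata3 varied least. It was at 65.7, 40.39, 53.04 and 63.06 TPM in transgene-free wild-type ganglia, 59.08, 68.22 and 60.4 in transgene-free het ganglia, 76.81, 68.95 and 91.24 in MYCN wild-type ganglia, 71.82 and 67.59 in MYCN het ganglia, and 108.6, 79.58, 69.77 and 60.96 in tumors. Of the tumors, 3 of 4 lay above all 7 transgene-free ganglia. Against transgene-free ganglia the log2 fold change was 0.87 (SE 0.16, edgeR adjusted p = 0.000264), a 1.83-fold difference, and it was the smallest of the members' differences that passed.

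Isl1 is a LIM-homeodomain factor required for the differentiation of sympathetic neurons. Its levels were 164.1, 57.27, 100.7 and 126.5 TPM in transgene-free wild-type ganglia, 133.8, 143.4 and 126.4 in transgene-free het ganglia, 308.4, 118 and 200.5 in MYCN wild-type ganglia, 117.8 and 177.6 in MYCN het ganglia, and 368.7, 102.8, 168.2 and 216.1 in tumors. Again 3 of 4 tumors lay above all transgene-free ganglia, and tumor replicate 2 did not. For Isl1 the log2 fold change was 1.24 (SE 0.34, edgeR adjusted p = 0.00644). It did not pass on the TPM scale with limma, at 0.70 (adjusted p = 0.0909), or 1.12 relative to the median of all genes.

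Tbx2, a T-box repressor with a part in cell cycle control, was at 98.9, 31.94, 53.9 and 55.44 TPM in transgene-free wild-type ganglia, 80.09, 74.69 and 85.99 in transgene-free het ganglia, 132.4, 75.56 and 116.1 in MYCN wild-type ganglia and 67.68 and 87.1 in MYCN het ganglia. The tumors were at 108.8, 31.66, 40.45 and 39.61 TPM. Tumor replicate 1 was higher than every transgene-free ganglion and the other 3 tumors were at 40.45 TPM or less, with replicate 2 below all 7 of them and replicates 3 and 4 below all but 1. The log2 fold change of 0.11 (SE 0.34, edgeR adjusted p = 0.807) was at -0.45 on the TPM scale with limma, which is -0.03 relative to the median of all genes.

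Insm1 is a zinc finger repressor expressed in dividing neuroendocrine and neuronal precursors, and it was nearly undetected in ganglia without the transgene. It was at 0.27, 2.5, 0.09 and 0.67 TPM in transgene-free wild-type ganglia and 1.22, 0.02 and 0.09 in transgene-free het ganglia, from 1 to 37 counts per library. In MYCN wild-type ganglia it was at 154.9, 1.27 and 29.4 TPM (replicates 1, 3 and 4), in MYCN het ganglia at 4.16 and 19.76, and in tumors at 113.6, 104, 83.48 and 64.63, from 3603 to 6035 counts. All 4 tumors lay above all 7 transgene-free ganglia, but 1 MYCN wild-type ganglion exceeded every tumor. For Insm1 the log2 fold change was 7.90 (SE 1.22, edgeR adjusted p = 7.43e-05), from a denominator of few counts. It was 8.54 without transgene-free wild-type replicate 2, the transgene-free ganglion with the most Insm1, and 9.14 without transgene-free het replicate 1, the next highest. It was 9.57 with a depth term and 9.71 with only libraries over 20000000 counts.

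**Figure D2:**
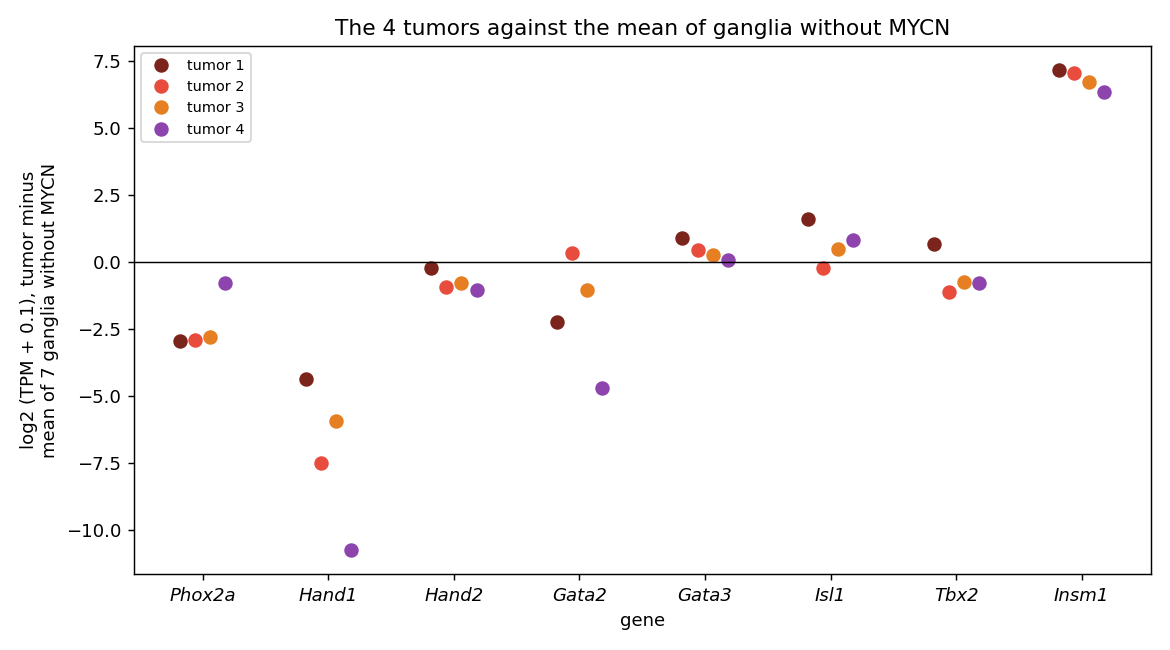
Each tumor's level of the 8 genes as the log2 difference in TPM (pseudocount 0.1) from the transgene-free mean (n = 7 ganglia), one point per tumor. The tumors span -4.69 to 0.34 for Gata2 and -10.76 to -4.38 for Hand1, and lie within 6.35 to 7.16 for Insm1.

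The tumors did not order alike for the different members. Tumor replicate 4 had the highest Phox2a and the lowest Hand1, Hand2, Gata2, Gata3 and Insm1, and tumor replicate 1 the highest Hand1, Hand2, Gata3, Isl1, Tbx2 and Insm1. Tumor replicate 2 was highest for Gata2 and lowest for Isl1 and Tbx2. With 4 tumors these orders are a description.

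In the same comparison, in which 61.4% of all genes were called, markers of other cells moved too. All 7 glial markers and all 5 fibroblast markers were lower in tumors, with summed levels of 13 to 20 against 525 to 1880 TPM and of 142 to 405 against 1340 to 6380 TPM. Of 8 neuronal markers 7 were lower (2200 to 3040 against 7010 to 19200 TPM), and all 8 cell cycle markers were higher, with a summed level of 1350 to 1610 against 63.2 to 303 TPM. Transgene-free wild-type replicate 2 set 3 of these limits: without it the transgene-free ganglia had at least 1210 TPM for glia, at least 11800 for neurons and at most 87.2 for the cell cycle. Of 6 endothelial and of 6 adrenal cortex markers 5 each were lower, with medians of -1.68 and -5.14, and of 6 myeloid markers 3 were higher. All 5 hepatocyte markers were called higher (median 4.87), although the tumors other than replicate 3 had a summed level within or below the 7.47 to 261 TPM of the transgene-free ganglia. None of the glial, fibroblast or neuronal markers was at 0 in all tumors. The part of these shifts in the members' differences was not tested.

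Tumors were then set against MYCN ganglia, which share the transgene. These comparisons use the same 4 tumors as the one above and are not independent of it. Against MYCN wild-type ganglia, 2 of 8 members were called, both lower, where 34.5% of all genes were called, 14% higher and 20.5% lower. Hand1 had a log2 fold change of -4.55 (SE 0.90, edgeR adjusted p = 0.0018), and of -5.84 without tumor replicate 1, with all 4 tumors below all 3 ganglia. Phox2a was at -1.37 (SE 0.50, edgeR adjusted p = 0.0459), again with all 4 tumors below all 3 ganglia, and this call was lost in 16 of 27 alternatives, 13 of them the 16 that leave out a single library (adjusted p of up to 0.119 in edgeR). The others were a depth term, a fit of just those groups and only libraries over 20000000 counts. Without tumor replicate 4 the value was -2.26. Insm1, the member with the largest difference from transgene-free ganglia, was at 0.85 (SE 1.17, edgeR adjusted p = 0.604) here, at 3.03 without MYCN wild-type replicate 1 (adjusted p = 0.0927) and at 2.85 with a depth term (adjusted p = 0.0405). Gata3, at 0.40 (SE 0.20, edgeR adjusted p = 0.131), and Isl1, at 0.38 (SE 0.43, edgeR adjusted p = 0.517), did not pass. Tbx2 was at -0.61 (SE 0.41, edgeR adjusted p = 0.272), and at -1.18 (adjusted p = 0.0139) without tumor replicate 1. Hand2 and Gata2 were at -0.18 and -0.32. For Gata2 the value was -1.385 without tumor replicate 2 (edgeR adjusted p = 0.0873) and 0.071 without tumor replicate 4.

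Against MYCN het ganglia, 3 of 8 members were called, 1 higher and 2 lower, where 45.5% of all genes were called, 22% higher and 23.5% lower. Hand1 was at -5.54 (SE 0.97, edgeR adjusted p = 0.000476; -6.83 without tumor replicate 1), Phox2a at -1.54 (SE 0.55, edgeR adjusted p = 0.0325) and Gata3 at 0.68 (SE 0.23, edgeR adjusted p = 0.0241). The Phox2a and Gata3 calls rest on 2 MYCN het libraries of 12367963 and 14221960 counts, and both were lost without either of them (adjusted p of 0.0969 to 0.149). Over 26 alternatives the Phox2a call was lost in 8 and the Gata3 call in 7. The Phox2a call was also lost without tumor replicate 1, 2 or 3 (adjusted p of 0.0708 to 0.0746), and its value was -2.43 without tumor replicate 4. Gata2 was called at -1.79 (adjusted p = 0.0349) without tumor replicate 2. Insm1 was at 3.41 (SE 1.58, edgeR adjusted p = 0.0928), and at 2.68 to 4.98 without single libraries, the MYCN het replicates 1 and 2. It was called in 5 of 25 alternatives, among them the library depth as a term (6.47, adjusted p = 0.00403), the replicate block (5.23, edgeR adjusted p = 0.0179) and a fit of just those groups (3.39, adjusted p = 0.00792).

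**Figure D3:**
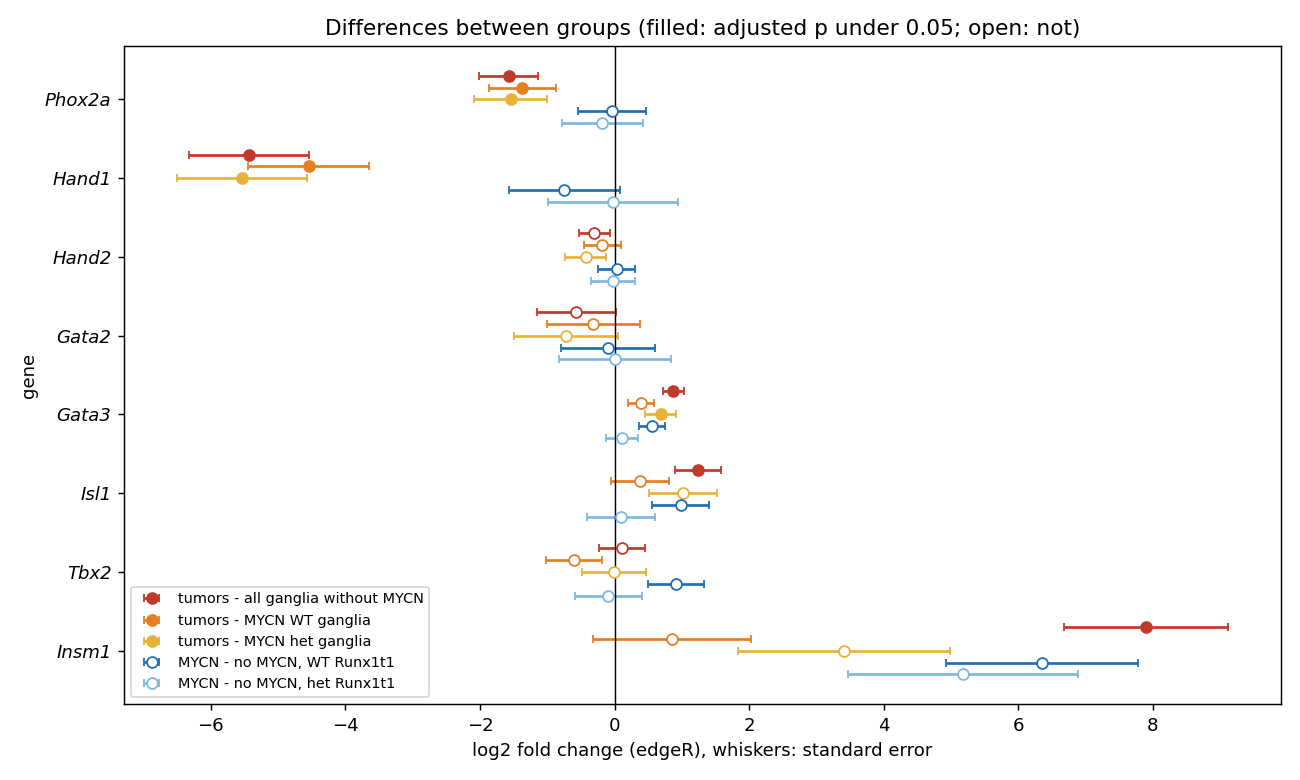
Log2 fold change of the 8 genes (horizontal axis, edgeR, whiskers show the SE) in 5 comparisons, with filled points for an adjusted p under 0.05 and open points for the rest. The tumor comparisons are filled for Hand1 and Phox2a on the left of 0, and neither MYCN comparison within ganglia is filled for any gene, although Insm1 lies at 6.36 and 5.18.

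The effect of the transgene in ganglia at 2 weeks was addressed by comparing MYCN with transgene-free ganglia of the same Runx1t1 genotype. With wild-type Runx1t1, 0 of 8 members were called, where 0.936% of all genes were called. That is 156 genes, a count of 0 without MYCN wild-type replicate 1 or 4 or transgene-free wild-type replicate 1, 3 or 4, of 1811 without MYCN wild-type replicate 3 and of 1276 with DESeq2. Insm1 was at 6.36 (SE 1.43, unadjusted p = 0.000559, edgeR adjusted p = 0.0532), with 2 of 3 MYCN wild-type ganglia above all 4 transgene-free ones. It was called without MYCN wild-type replicate 3, the library at 1.27 TPM (6.95, adjusted p = 0.00309), and without transgene-free wild-type replicate 2 (7.56, adjusted p = 0.0323), and with DESeq2 (6.19, adjusted p = 0.000489). Without MYCN wild-type replicate 1 the value was 4.17.

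The other members moved less. Gata3 was at 0.55 (SE 0.19, edgeR adjusted p = 0.147), Isl1 at 0.98 (SE 0.43, edgeR adjusted p = 0.226) and Tbx2 at 0.91 (SE 0.41, edgeR adjusted p = 0.242). Hand1 was at -0.75 (SE 0.83, edgeR adjusted p = 0.657), and Phox2a, Hand2 and Gata2 were between -0.10 and 0.04. Over all genes 3302 had an unadjusted p under 0.05 in this comparison.

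The 3 MYCN wild-type ganglia differed from one another. Insm1 was at 154.9, 29.4 and 1.27 TPM in replicates 1, 4 and 3, beside a summed level of 8 cell cycle markers of 1120, 602 and 114 TPM in the same order. In MYCN het replicates 2 and 1 it was at 19.76 and 4.16 TPM, beside 237 and 88 TPM. Isl1 and Tbx2 were also highest in replicate 1 and lowest in replicate 3 of the MYCN wild-type ganglia, and Hand1 was lowest in replicate 1, at 161.8 TPM, the lowest value of any ganglion. The summed level of the neuronal markers was 6990 TPM in that library and 10900 and 13100 TPM in replicates 4 and 3. Whether these library differences set the members' levels was not tested.

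**Figure D4:**
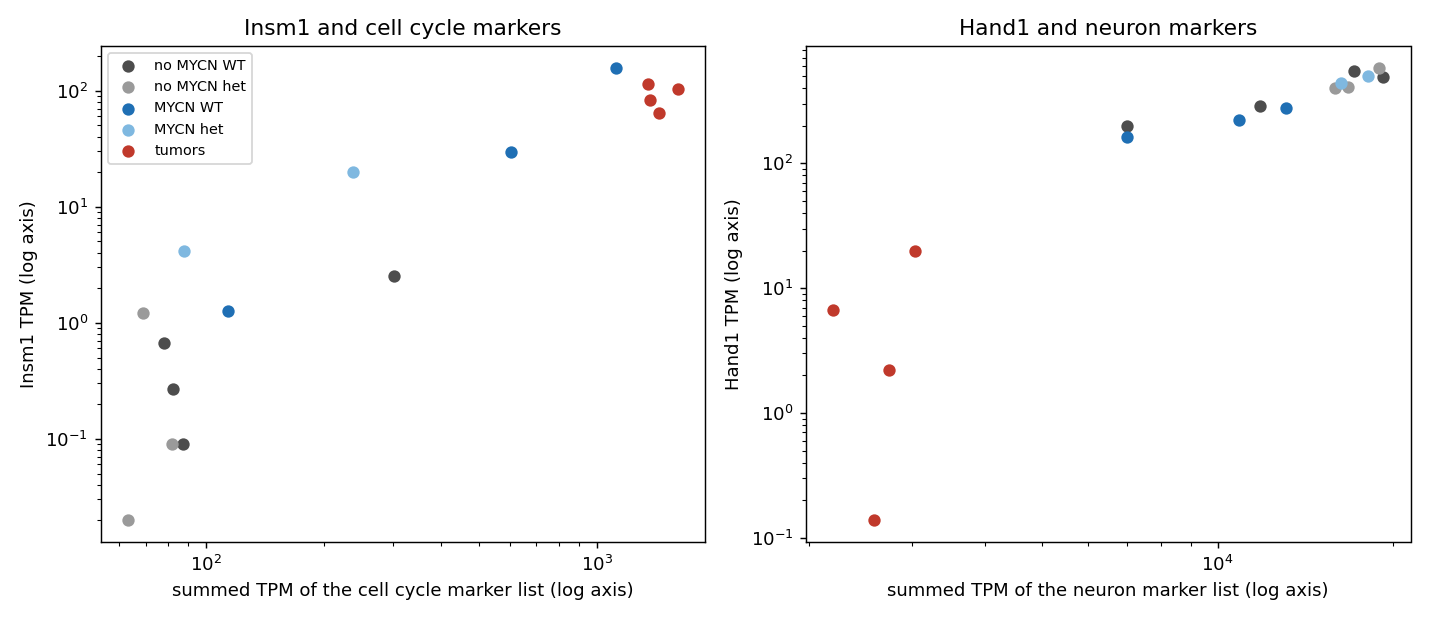
Insm1 against the summed level of 8 cell cycle markers, and Hand1 against that of 8 neuronal markers, in TPM on log axes, one point for each of the 16 libraries colored by group. The MYCN wild-type ganglion with 154.9 TPM of Insm1 has a cell cycle sum of 1120 TPM, near the tumors at 1350 to 1610, and the tumors lie lowest on both axes of the Hand1 panel.

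With the het label, 0 of 8 members were called between MYCN (n = 2) and transgene-free (n = 3) ganglia. In the edgeR fit of all groups 0% of all genes were called. At an unadjusted p under 0.05 there were 242 genes, DESeq2 called 14 genes, and a fit of just those groups called 9. Insm1 was at 5.18 (SE 1.71, unadjusted p = 0.00911, edgeR adjusted p = 1), with both MYCN het ganglia above all 3 transgene-free het ones. It ran from 3.60 without MYCN het replicate 2 to 7.67 without transgene-free het replicate 1. The other 7 members were between -0.18 and 0.11.

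The Runx1t1 genotype was compared within each MYCN genotype, the contrast that asks what loss of an allele did. Within MYCN ganglia, 0 of 8 members were called and 0.012% of all genes, which is 2 genes, against 253 with DESeq2, 320 without MYCN wild-type replicate 3 and 2094 at an unadjusted p under 0.05. Insm1 did not pass, at -2.56 (SE 1.54, edgeR adjusted p = 0.505), and both het ganglia lay within the range of the wild-type ones. Its value ran from -4.13 without MYCN het replicate 2 to -0.38 without MYCN wild-type replicate 1. Hand1 was at 0.99 (SE 0.96, edgeR adjusted p = 0.706), with both het ganglia, at 496.1 and 442.8 TPM, above all 3 wild-type ones. Isl1 and Tbx2 were at -0.64 and -0.60 (edgeR adjusted p = 0.639 and 0.652). Within transgene-free ganglia, 0 of 8 members and 0% of all genes were called, with 687 genes at an unadjusted p under 0.05 and 2 called by DESeq2, and the smallest adjusted p of a member was 0.993. The test of whether the MYCN effect depended on the Runx1t1 genotype, an interaction term, called 0 of 8 members and 0% of all genes, with 937 genes at an unadjusted p under 0.05 and 30 called by DESeq2. Its largest value among members was -1.18 for Insm1 (SE 2.23, edgeR adjusted p = 0.952), a value that ran from -2.76 to 1.32 when single libraries were left out, the latter without transgene-free het replicate 1. These comparisons share control libraries.

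Ordered by mean TPM, the groups fell into different sequences for different members. For Phox2a, Hand1 and Hand2 the tumors were last, with means of 102, 7.23 and 531 TPM, and did not overlap the group next to them, MYCN wild-type ganglia with 350, 220 and 784 TPM. The 4 ganglia groups of these genes each overlapped their neighbor in the order. For Insm1 tumors were first (91.4 TPM), followed by MYCN wild-type (61.8 TPM) and MYCN het ganglia (12 TPM), and the transgene-free groups at 0.883 and 0.443 TPM did not overlap the MYCN het ganglia above them. For Gata2, Gata3, Isl1 and Tbx2 every group overlapped its neighbor. How often groups fail to overlap was not counted over all genes, of which 34.5% were called between tumors and MYCN wild-type ganglia. Hand2 did not pass in that comparison (edgeR adjusted p = 0.641).

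Pairs of related genes were examined within each library, since a ratio of 2 TPM values does not depend on how libraries are scaled. The pairs were chosen after the levels had been seen, so the tests describe these libraries. Exact two-sided permutation tests were adjusted over the 5 pairs tested, of which 4 are given. The ratio of Hand1 to Hand2 was 0.41 to 0.591 in the transgene-free ganglia and at most 0.0268 in tumors, a log2 difference of -6.58 (exact permutation adjusted p = 0.00505, n = 4 and 7), from an unadjusted p of 0.00303, the smallest possible. The ratio of Gata2 to Gata3 was 4.33 to 6.26 in the transgene-free ganglia and 0.643, 5.19, 2.27 and 0.207 in tumors, a log2 difference of -2.29 (exact permutation adjusted p = 0.00909), with tumor replicate 2 inside the range of the ganglia. The ratio of Tbx2 to Tbx3, a close paralog, was 0.62 to 1.84 in the transgene-free ganglia and 2.38 to 16.6 in tumors, where Tbx3 was lower and Tbx2 did not pass the test (log2 difference 2.06, exact permutation adjusted p = 0.00505). The ratio of Insm1 to Insm2 was at most 0.108 in the transgene-free ganglia and 0.263 to 0.454 in tumors (log2 difference 5.93, exact permutation adjusted p = 0.00758). The value of 0.108 is transgene-free wild-type replicate 2, without which the highest was 0.0207 and the difference 6.63. In MYCN ganglia against transgene-free ganglia the Insm1 to Insm2 ratio differed by 4.59 (exact permutation adjusted p = 0.0252), and the other 3 pairs given here did not pass (adjusted p of 0.0662 to 0.0947). Without transgene-free wild-type replicate 2 the Gata2 to Gata3 ratio also passed there, at -0.47 (exact permutation adjusted p = 0.0288). These tests pooled MYCN wild-type and het ganglia, whose ratios lay apart for the 3 pairs other than Insm1 to Insm2. Tbx2 to Tbx3 was 6.24, 2.54 and 5.39 in MYCN wild-type ganglia, above all transgene-free ganglia, but 0.814 and 1.15 in het ones. Hand1 to Hand2 was 0.208, 0.361 and 0.275 in the former, below all transgene-free ganglia, and 0.502 and 0.434 in the latter. Gata2 to Gata3 was 2.95, 4.64 and 2.84 against 5.33 and 5.62. The Runx1t1 genotypes were not tested separately.

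**Figure D5:**
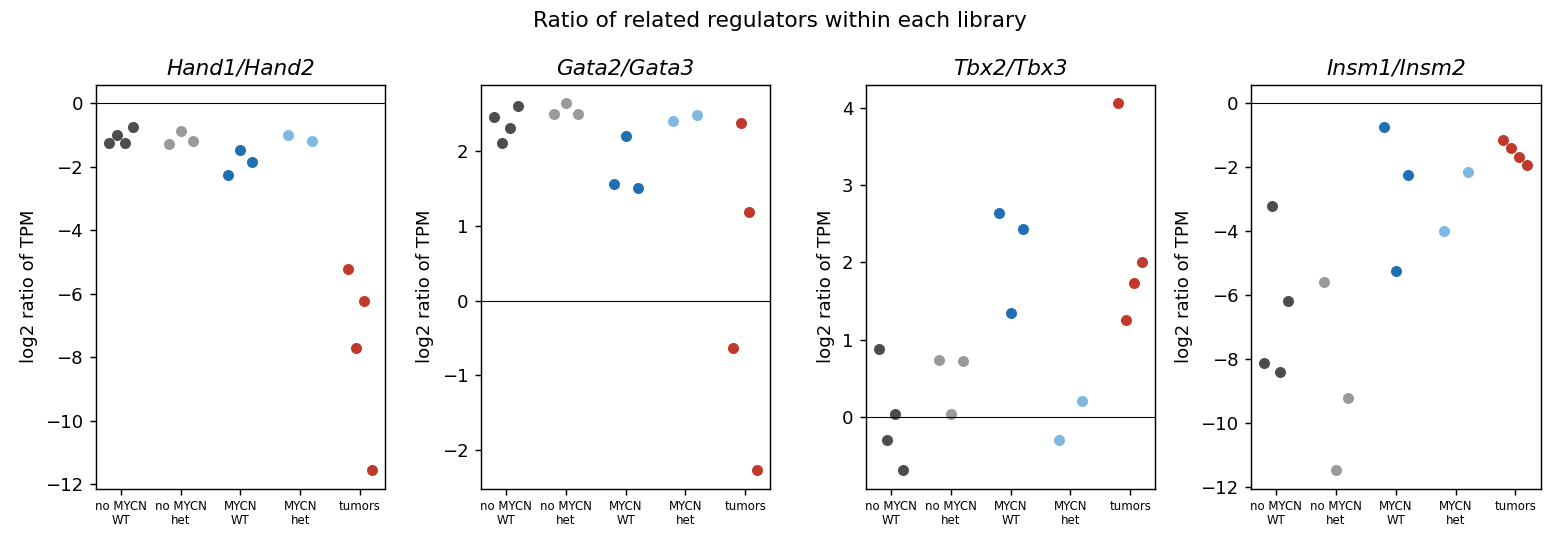
Log2 ratio of the TPM of each gene pair (vertical axis) in every library by group, one point per library, for 4 pairs. The tumors are below all ganglia for Hand1/Hand2, above the transgene-free ganglia for Tbx2/Tbx3, and spread from -2.27 to 2.38 for Gata2/Gata3.

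Other transcription factors of the noradrenergic circuit were compared between tumors and transgene-free ganglia, where 61.4% of all genes were called, 30.6% higher and 30.9% lower. Of 18 listed, 16 were tested, 11 were higher, 3 lower and 2 not called, with a median log2 fold change of 1.47, against -0.06 over all genes. Dach1, a repressor of the Dachshund family, was at 4.77 (SE 0.48, edgeR adjusted p = 2.89e-06), and Sox11, an SRY-box factor of neuronal precursors, at 4.05 (SE 0.47, edgeR adjusted p = 7.6e-06). The 3 lower ones were Ebf1 at -2.56 (SE 0.24), Klf7 at -1.20 (SE 0.20) and Klf13 at -0.73 (SE 0.14). In the MYCN effect with wild-type Runx1t1, 3 of these 16 were called, all higher, Sox11 at 2.91 (SE 0.57, edgeR adjusted p = 0.0379), Sox4 at 1.56 (SE 0.32, edgeR adjusted p = 0.0425) and Nhlh2 at 8.27 (SE 1.66, edgeR adjusted p = 0.0397), where 0.834% of all genes were called higher. No gene at all was called in that comparison with the replicate block, in a fit of just those groups, with only libraries over 20000000 counts or without any one of the 5 libraries named for it above. Sox4 and Nhlh2 are named there only because the count is small.

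Relatives of the members in the GATA, T-box, LIM-homeodomain and Insm families split in direction. Of 13 listed, 10 were tested, 3 were higher and 5 lower in tumors, with a median of -1.17, beside the 61.4% of all genes called. Tbx4 had 0 counts in every transgene-free ganglion and 516 counts over the tumors, at least 209-fold higher against a floor of 3 counts over the group. Insm2 was higher at 2.81 (SE 0.37, edgeR adjusted p = 2.16e-05), as was Gata5. Tbx20 at -4.64 (SE 0.93, edgeR adjusted p = 0.000635), Tbx3 at -2.03 (SE 0.24, edgeR adjusted p = 9.1e-06) and Tbx1 were lower, as were Tbx15 and Tbx18. Tbx1 was at 0.04 to 18.7 TPM in transgene-free ganglia, highest in wild-type replicate 2.

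Partners and inhibitors of the members included the E proteins, which dimerize with Hand factors, the Id proteins, which sequester E proteins, and the LIM-only and LIM-binding proteins, which bridge Gata and Isl complexes. Of 19 listed, 18 were tested, 8 were higher and 4 lower in tumors, with a median of 0.43, so that the share called was near the 61.4% of all genes. The E protein genes Tcf4 and Tcf3 were at 2.68 (SE 0.22, edgeR adjusted p = 7.84e-07) and 2.25 (SE 0.31, edgeR adjusted p = 2.66e-05), and the LIM-only gene Lmo3 was at 3.69 (SE 0.57, edgeR adjusted p = 7.77e-05). The inhibitors Id4, Id1 and Id3 were at -3.62 (SE 0.55), -2.24 (SE 0.51) and -1.75 (SE 0.53), the fourth lower gene being Zfpm1, a GATA cofactor.

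The genes of the noradrenergic neuron that lie downstream of the circuit were compared in tumors and transgene-free ganglia, with 12 of 14 lower, Chgb higher and Chga not called, and a median of -3.00, where 30.9% of all genes were lower. Prph, the intermediate filament peripherin of peripheral neurons, was at -8.90 (SE 0.73, edgeR adjusted p = 7.71e-07), and Slc6a2, the noradrenaline transporter, at -7.18 (SE 0.90, edgeR adjusted p = 1.41e-05). Of the 14, Th, Dbh and Prph are also among the 8 neuronal markers. In the MYCN effect with wild-type Runx1t1, none of the 10 relatives, 18 partners and inhibitors or 14 downstream genes tested was called. Only 0.936% of all genes were called there, so lists of this size would rarely hold a call.

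The genes whose log2(TPM + 1) followed a member most closely over the 16 libraries, by Pearson's r among 14747 genes with a mean of at least 1 TPM, are given as a description. All 16 libraries share the tumor and ganglion split and library composition, and such values run high for many genes. Hand1 was followed most closely by Map7 (r = 0.99), Npy (0.989) and Dbh (0.988). Insm1 was followed by Hnrnpa3 (0.986), Prox1 (0.984) and Neto2 (0.983). With a pseudocount of 0.1 the closest 3 were Map7, Dnaja4 and Maob for Hand1 and Hnrnpa3, Taf5 and Rad54b for Insm1. Isl1 was followed by Meis1 (0.966), Eya1 (0.945) and 4931428F04Rik (0.934). Phox2a was followed by Nrg3 (0.979), Dcaf12l1 (0.965) and Camk1g (0.964), and Hand2 by Slc22a17 (0.976), Rragd (0.974) and Ube2o (0.968).

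The closest genes were less alike for the remaining members. For Tbx2 they were Kif26b (0.937), Dpysl4 (0.919) and Kdm4b (0.919), and for Gata2 Gm6682 (0.928), Tuba1c (0.896) and Glce (0.873). For Gata3 they were 9230102O04Rik (0.937), Mpped2 (0.889) and Hdgfrp3 (0.884), the first of which overlaps Gata3 on the same strand, so that shared reads may enter its r. Over the 12 ganglia alone, other genes came first: Meis1 stayed among the closest 3 for Isl1, Rragd for Hand2, Dpysl4 for Tbx2 and Hnrnpa3 for Insm1, while none of the 3 was shared for Phox2a, Hand1, Gata2 and Gata3.

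Among themselves, members correlated in overlapping pairs in ganglia, such as Hand2 with Gata2 (r = 0.892), Phox2a with Gata2 (0.847) and Gata3 with Tbx2 (0.848). Over the 12 ganglia the highest values of r were 0.938 for Phox2a with Hand2, 0.938 for Isl1 with Tbx2 and 0.917 for Hand1 with Gata2. Without transgene-free wild-type replicate 2, in which 7 of the members were low together, they were 0.904, 0.883 and 0.962. In those 11 ganglia Insm1 had an r of 0.852 with Isl1 and -0.679 with Hand1, and Hand1 had an r of -0.554 with Isl1, against -0.094 with that library included. These are descriptions over libraries that share depth and tissue composition.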

How the data were processed

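RNA had been extracted from celiac ganglia (RNeasy Micro, quality checked by the authors) and from tumors. It was made into libraries with a stranded total RNA kit and sequenced as read pairs. The labels name the molecule polyA RNA, while the kit named is for total RNA. The authors aligned reads to mm10 with STAR, sorted alignments with SAMtools and ran RSEM. They deposited RSEM expected counts, not normalized, and TPM, normalized to gene length and depth within each library. No adjustment for library depth had been made to the expected counts, and RSEM shares out reads among near-identical genes.

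Here expected counts were rounded to whole numbers. With R 4.3.3, edgeR 4.0.16 filtered low counts (filterByExpr, by group), normalized by TMM and fitted all 5 groups with the quasi-likelihood model, adjusting each of 8 comparisons by Benjamini-Hochberg over 16665 genes with a threshold of 0.05. The fit with all groups was used because 1 group has 2 libraries. Alternatives were upper-quartile scaling, DESeq2 1.42.0, other filters, limma 3.58.1 on log2(TPM + 1) and log2(TPM + 0.1), only the groups compared, a replicate block, terms for depth or sex, each library left out in turn, and, added after the data were seen, only libraries over 20000000 counts. The sample titles give no sex, so the term for sex used sex inferred from the level of Ddx3y. The boundary was 1 CPM (counts scaled to the total of the library). Ddx3y was above it in 3 of 12 ganglia and in 3 of 4 tumors. Inferred sex was therefore uneven between tumors and ganglia, and the term for sex is not independent of tissue. The fits were tested on simulated data. Replicates were compared with one another and no pair was a repeat of the same library.

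All 8 members are named. From each list of other circuit genes, at most 3 higher and 3 lower genes are named, those of largest log2 fold change past the threshold in tumors against transgene-free ganglia whose groups do not overlap, and the 3 genes with the highest r per member. Some genes that the rule would name are not reported here. Genes named outside this rule complete a count of 5 or fewer, or are the Tbx3 and Insm2 partners of a ratio or an overlapping gene, chosen after their values were seen. Members and lists were chosen with earlier results of these data known, so none of the patterns is independent support for another. The Runx1t1 genotype is abbreviated Hom in some headers, which was read as homozygous wild-type, as the labels give it. The small number of libraries per group limits precision.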

Additional observations from a re-analysis of the deposited data

Results flagged for a closer look

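Among the 16 groups of 4 libraries examined (8 members, in tumors and in transgene-free wild-type ganglia), 2 held a library that stood far from the other 3 by Dixon's test at the 95% level. Chance alone flags about 1 in 20 groups. Phox2a was at 240 TPM in tumor replicate 4, and the gap to the next tumor made up 0.967 of the range of the tumors. Tbx2 was at 109 TPM in tumor replicate 1, where the gap made up 0.886 of the range.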

How the results depend on the processing

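Across 64 member results and 27 alternatives each where they could be run, 1624 of 1680 values kept their side of the threshold, 33 lost the call and 23 gained it. The sign changed in 63 of the 1680, with a call in neither fit in any of them, such as Tbx2 against transgene-free ganglia (0.11, and -0.46 without tumor replicate 1). The number of genes called over all genes changed with the setting too. In the main fit it was 10240, 5755 and 7582 of 16665 in tumors against transgene-free, MYCN wild-type and MYCN het ganglia. Against transgene-free ganglia, 5 members were called, with 5 to 6 when single libraries were left out and 3 with at least 10 counts in every library, where Hand1 and Insm1 could not be tested. All genes called were 9520 to 10755 without single libraries and 8466 of 12271 with at least 10 counts. Against MYCN wild-type ganglia the count of 2 became 1 with at least 10 counts in every library, 1 with a fit of just those groups and 1 with only libraries over 20000000 counts, and 1 to 2 without single libraries. In the same order 5165 of 12271, 4264 of 15410 and 7101 of 16473 genes were called, and 3549 to 6755 genes without single libraries. Against MYCN het ganglia the count of 3 became 1 with a term for sex, and 1 to 4 without single libraries. There 6480 of 16665 genes were called with the term for sex, and 4313 to 8275 genes without single libraries. For the MYCN effect with wild-type Runx1t1 the count of 0 became 1, Insm1, with upper-quartile normalization, 1 with DESeq2, 1 with no filter and 1 with a depth term, and 0 to 1 without single libraries. In the same order 238 of 16665, 1276 of 15141, 198 of 19887 and 308 of 16665 genes were called. Without single libraries it was 0 to 1811 genes, against 156 in the main fit. With limma on log2(TPM + 1) the counts were 6, 3 and 4 in tumors against transgene-free, MYCN wild-type and MYCN het ganglia, with Tbx2 added in the second (-1.10, adjusted p = 0.0371) and, in the third, Hand2 (-0.95, adjusted p = 0.0258) and Insm1 (3.13, adjusted p = 0.0315) added and Gata3 lost (0.16, adjusted p = 0.579). Over all genes that setting called 9872, 6149 and 7860 of 14747 in these comparisons. The cause of the changes in these counts was not tested.

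On TPM the median of 14686 shared genes in tumors against transgene-free ganglia was -0.42, against -0.05 with TMM. Relative to that median the members were at -1.85 for Phox2a, -5.93 for Hand1, -0.30 for Hand2, -1.44 for Gata2, 0.83 for Gata3, 1.12 for Isl1, -0.03 for Tbx2 and 6.33 for Insm1.

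Replicate numbers were not treated as pairs: of 25 same-numbered pairs, 7 correlated above 0.1 in their deviations from group means (r from -0.273 to 0.308), and 5 of 16 libraries correlated best with their own number. The 7 include all 4 pairs of tumors with transgene-free wild-type ganglia (r from 0.149 to 0.308). With the replicate block, 5, 2 and 4 members were called in tumors against transgene-free, MYCN wild-type and MYCN het ganglia, the added gene being Insm1 (5.23, edgeR adjusted p = 0.0179), and 0 in each comparison within ganglia. Of all 16665 genes, 9968, 5038 and 7576 were called in the tumor comparisons with the block, and at most 1 in each comparison within ganglia. No library over 20000000 counts was MYCN het, so that alternative could not be fitted for comparisons with that group.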
